A study of Mus musculus with 79 samples.

Results

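The genes of the synaptic vesicle release machinery were followed across D1- and D2-receptor neurons of the mouse striatum and prefrontal cortex. They were taken by gene symbol: the numbered synaptotagmins (Syt), syntaxins (Stx), syntaxin-binding proteins (Stxbp), vesicle-associated membrane proteins (Vamp) and Snap genes, with Rab3, Rims, Unc13, Doc2, synapsin (Syn) and Sv2 family genes and the complexins Cplx1 and Cplx2. The rule found 71 of the 25899 genes in the table, among them 17 synaptotagmins, 15 syntaxins, 6 Vamp genes, 5 Stxbp genes, 5 Snap genes and 4 genes each of Rab3, Rims and Unc13. The symbol rule itself uses no measured value. Some genes found by symbol serve other membrane traffic: Stx5a, Stx6, Stx16 and Stx18 act at the Golgi and endoplasmic reticulum, Stx7, Stx8, Stx12 and Vamp4 in endosomal traffic, and Snap91 encodes a clathrin assembly protein that shares only its name with Snap25.

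A synaptic vesicle fuses when the vesicle protein synaptobrevin (Vamp) zippers with syntaxin and SNAP-25 on the plasma membrane, a complex that Munc13 (Unc13) primes. Synaptotagmins and Doc2 proteins sense calcium, complexins clamp and promote fusion, Rims and Rab3 dock vesicles at the active zone, and synapsins hold the reserve pool. Striatal projection neurons are GABAergic: those with the D1 receptor project mainly to the substantia nigra and internal pallidum, those with the D2 receptor mainly to the external pallidum. The D1-receptor cells of the prefrontal cortex include glutamatergic pyramidal neurons.

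Ribosome-bound RNA was isolated by translating ribosome affinity purification from heterozygous C57BL/6J bacTRAP mice, in which a bacterial artificial chromosome with the Drd1a or the Drd2 promoter drives the GFP-tagged ribosomal protein L10a. No other treatment or allele is given in the labels, and neither is the age. Each of the 79 libraries pooled 3 mice of both sexes. There were 15 libraries of D1 dorsal striatum, 16 of D2 dorsal striatum, 15 of D1 ventral striatum, 14 of D2 ventral striatum and 19 of D1 prefrontal cortex. Values are in CPM (a gene's reads scaled to a common library total), and whole reads recovered from them gave 7.35 M to 30.83 M reads in genes per library (median 17.5 M, where M is the SI prefix mega). Groups were compared with limma on log2(CPM + 0.5), and a gene was called at a Benjamini-Hochberg adjusted p under 0.05 over all genes tested. Adjusted p-values and log2 differences are from that fit, and a difference is signed as the first group minus the second.

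The labels were checked against markers before the genes were compared. The summed level of the D1 markers Drd1a, Tac1 and Pdyn was 349 to 598 CPM (median 442) in D1 dorsal striatum and 18.6 to 80.4 CPM (median 30.3) in D2 dorsal striatum. In the prefrontal libraries it was only 14.2 to 72.9 CPM (median 24.3), and there the 5 cortical glutamatergic markers (Slc17a7, Neurod6, Neurod2, Tbr1 and Nrn1) summed to 529 to 856 CPM (median 596). Those 5 genes also differed between the striatal groups: 26.7 to 128 CPM (median 88.6) in D1 dorsal, 1.13 to 33.7 CPM (median 6.96) in D2 dorsal, 16.3 to 98.3 CPM (median 58.1) in D1 ventral and 3.53 to 77.3 CPM (median 11.3) in D2 ventral striatum. The highest sums of the D2 groups were each in 1 library, D2 dorsal replicate 1 and D2 ventral replicate 2, where the next highest libraries were at 14.5 and 22.4 CPM. None of the 5 was at 0 throughout any group. In 7 libraries the correlation with the median of their own group was under 0.95: D1 dorsal striatum replicates 4 and 13, prefrontal replicate 10, D2 dorsal striatum replicates 2 and 6, and D2 ventral striatum replicates 6 and 14. Counts of members called in each comparison are given with and without these 7, while 2-fold counts and counts of gene families use all libraries. Library names carry the codes EM, OdP, BdP and JAG (53, 14, 9 and 3 libraries), whose meaning the labels do not state. OdP made up 8 of the 16 D2 dorsal and 5 of the 14 D2 ventral libraries, but 1 of the 49 D1 libraries.

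Most of the machinery was present in every group. Of the 71 genes, 64 entered at least 1 test. The 7 that did not were Stx11, Stx19, Syt8, Syt15, Unc13d, Vamp5 and Vamp8, and Syt8 had no read in any library. Per kilobase of exon, Snap25 was highest in all 5 groups, with means of 705 CPM per kilobase in D1 dorsal, 643 in D2 dorsal, 582 in D1 ventral and 633 in D2 ventral striatum and 1286 in prefrontal cortex. In D1 dorsal striatum it was followed on the same scale by Cplx2 at 159, Vamp2 at 153, Syn1 at 106 and Cplx1 at 103. In prefrontal cortex Syn1 (239.8) and Vamp2 (229) came next. Beside this common pattern, 19 of 62 members tested were called with at least a 2-fold difference between prefrontal cortex and D1 dorsal striatum (16% of all genes). Among them were calcium sensors, priming factors, Sv2 proteins and Stx1a.

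**Figure D1:**
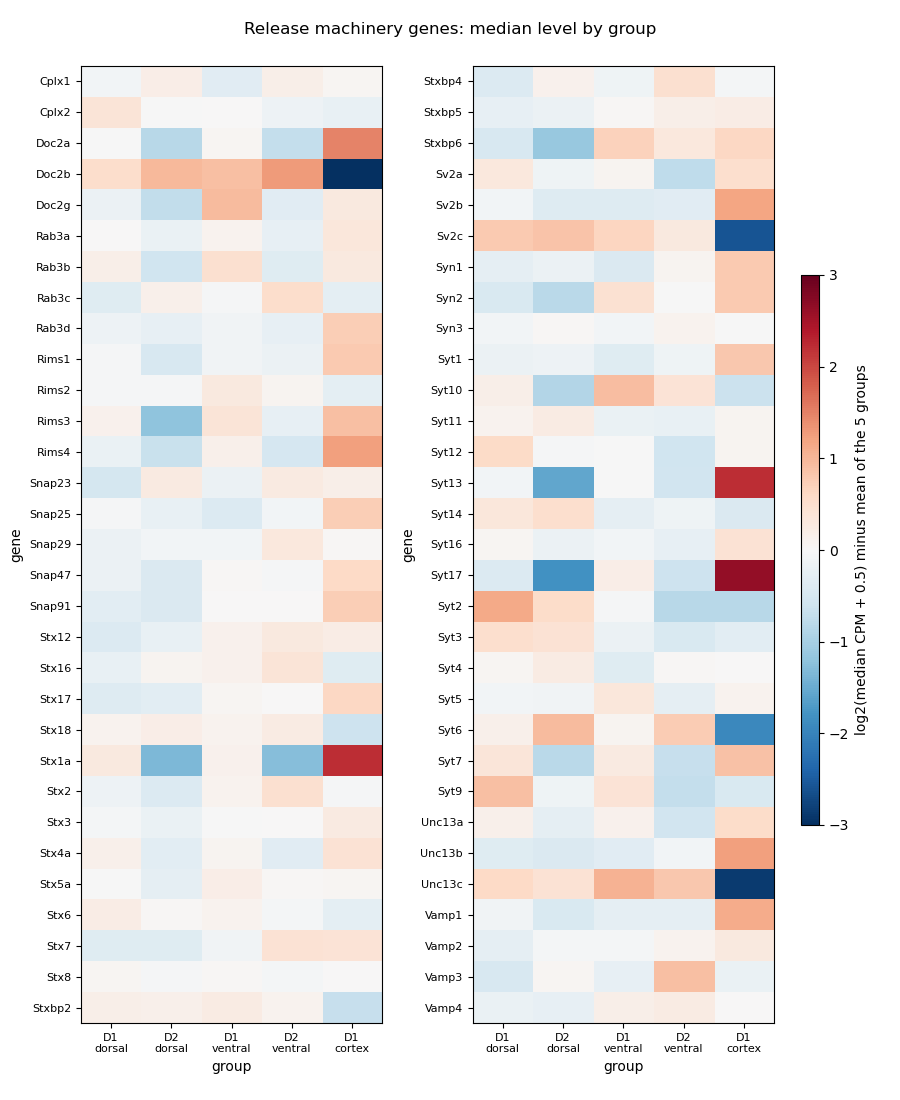
Each row is a gene that entered a test, a few aside, and each column a group (dorsal and ventral are striatum, cortex is prefrontal); colour is log2(median CPM + 0.5) minus the mean of the 5 groups for that gene. The deepest blue in the cortex column marks Doc2b, Unc13c and Sv2c, and the deepest red there marks Syt17, Syt13 and Stx1a.

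The first comparison asked how D1-receptor cells of the prefrontal cortex differ in release genes from D1 neurons of the striatum. Of the 62 genes tested against dorsal striatum, 34 were higher in prefrontal cortex (32.3% of all genes tested were) and 15 were lower (22.5% of all genes). With a difference of at least 2-fold, 13 were higher and 6 lower, against 10.7% and 5.37% of all genes. Against ventral striatum 32 of 62 were higher and 17 lower, where 27.7% and 35.1% of all genes were. At 2-fold or more these were 11 higher and 6 lower, against 8.55% and 5.62% of all genes. The median log2 difference of the tested members was 0.36 against dorsal striatum (0.05 over all genes) and 0.19 against ventral striatum (-0.07 over all genes). Libraries of the 2 groups did not overlap for 17 genes against dorsal striatum (10.5% of all genes) and for 18 against ventral striatum (12.6% of all genes). Without the 7 libraries that stood apart, 36 were higher and 15 lower against dorsal striatum (34.4% and 24.7% of all genes) and 34 and 17 against ventral striatum (28.1% and 36.1%), with no overlap for 24 (14.7% of all genes) and 18 (13.7%). Both comparisons use the same 19 prefrontal libraries.

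Most prominent among the genes low in cortex was Doc2b, a high-affinity calcium sensor of spontaneous and asynchronous release (chromosome 11, 75768270 to 75796060, GRCm38). The lowest, median and highest Doc2b levels were 36.0, 52.0 and 93.8 CPM in D1 dorsal striatum, 51.0, 67.3 and 113 CPM in D1 ventral striatum and 1.76, 2.28 and 10.3 CPM in prefrontal cortex. No prefrontal library reached any striatal library, and the highest prefrontal value was in replicate 6. The prefrontal minus dorsal log2 difference was -4.01 ± 0.194 (SE, adjusted p = 6.08e-21) and the prefrontal minus ventral difference -4.39 ± 0.185 (SE, adjusted p = 3.18e-23). Doc2a, the paralog tied to asynchronous and spontaneous glutamate release, went the other way. Its levels were 4.25 to 11.8 CPM (median 7.85) in D1 dorsal striatum, 5.32 to 10.4 CPM (median 8.27) in D1 ventral striatum and 13.7 to 28.8 CPM (median 23.3) in prefrontal cortex, again without overlap. Its log2 differences were 1.60 ± 0.117 (SE, adjusted p = 2.15e-15) and 1.51 ± 0.0926 (SE, adjusted p = 6.23e-18).

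Unc13c, which encodes the priming factor Munc13-3, was at 2.27 to 9.49 CPM (median 3.92) in prefrontal cortex, against 28.5 to 63.0 CPM (median 48.3) in D1 dorsal and 42.4 to 79.7 CPM (median 66.2) in D1 ventral striatum. Here too the prefrontal libraries lay below every D1 striatal library, with differences of -3.42 ± 0.119 (SE, adjusted p = 3.69e-25) and -3.83 ± 0.114 (SE, adjusted p = 3.93e-28). Unc13b (Munc13-2) was higher in cortex: 8.11 to 19.0 CPM (median 12.3), against 1.21 to 14.98 CPM (median 3.76) in D1 dorsal and 2.12 to 6.04 CPM (median 3.82) in D1 ventral striatum. The dorsal groups met only through D1 dorsal striatum replicate 13, a library that stood apart, and the ventral groups did not meet. The Unc13b differences were 1.64 ± 0.168 (SE, adjusted p = 3.68e-11) and 1.57 ± 0.11 (SE, adjusted p = 3.32e-16). Unc13a (Munc13-1), the main neuronal priming factor, differed less, by 0.41 and 0.46.

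Among the vesicle proteins, Sv2c, a form of the SV2 glycoprotein known from the basal ganglia, was at 2.09 to 12.0 CPM (median 3.88) in prefrontal cortex, 26.2 to 63.4 CPM (median 45.5) in D1 dorsal and 32.9 to 73.7 CPM (median 40.9) in D1 ventral striatum. The groups were separate, with differences of -3.21 ± 0.166 (SE, adjusted p = 4.57e-20) and -3.17 ± 0.161 (SE, adjusted p = 1.33e-20). Sv2b, the form found in many glutamatergic terminals, was higher in cortex at 188 to 412 CPM (median 265), against 65.6 to 160.5 CPM (median 110.0) and 52.4 to 110.5 CPM (median 89.3) in D1 dorsal and ventral striatum. Its differences were 1.28 ± 0.107 (SE, adjusted p = 1.4e-13) and 1.64 ± 0.0992 (SE, adjusted p = 3.64e-18). Syn1, the major synapsin, was at 442 to 2048 CPM (median 624) in cortex, against 208 to 1057 CPM (median 304) and 187 to 476 CPM (median 271) in D1 dorsal and ventral striatum. The highest Syn1 levels of prefrontal cortex and of D1 dorsal striatum were in replicates 10 and 13, which stood apart. Syn1 was higher in cortex by 1.19 and 1.38, or 1.23 and 1.30 without such libraries, and Syn2 by 1.30 against dorsal but only 0.38 against ventral striatum. Syn3 did not pass in either comparison.

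Synaptotagmins went both ways. Of the 15 tested against dorsal striatum, 5 were higher in prefrontal cortex and 7 lower (32.3% and 22.5% of all genes), with a median log2 difference of -0.10. Of the 14 tested against ventral striatum, 7 were higher and 5 lower (27.7% and 35.1% of all genes), with a median of 0.22. Syt17, an atypical member without a transmembrane segment, was at 5.54 to 25.8 CPM (median 19.1) in cortex, against 0.168 to 6.86 CPM (median 1.87) in D1 dorsal and 0.889 to 5.10 CPM (median 3.11) in D1 ventral striatum. The Syt17 differences were 3.07 ± 0.229 (SE, adjusted p = 4.13e-15) and 2.53 ± 0.17 (SE, adjusted p = 1.09e-16). Syt13, another atypical synaptotagmin, was at 28.5 to 45.7 CPM (median 37.3) in cortex, against 2.15 to 11.4 CPM (median 7.15) and 4.74 to 12.3 CPM (median 7.58) in D1 dorsal and ventral striatum, and differed by 2.33 ± 0.137 (SE, adjusted p = 3.02e-18) and 2.20 ± 0.095 (SE, adjusted p = 6.55e-23). Prefrontal and striatal libraries overlapped for Syt17 in the dorsal comparison and in no other of these 4. Syt1, the main fast calcium sensor of the forebrain, was higher by less, with differences of 0.93 ± 0.0816 (SE, adjusted p = 4.26e-13) and 1.18 ± 0.0773 (SE, adjusted p = 5.38e-17).

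Syt6, another synaptotagmin, was low in cortex, at 9.32 to 41.5 CPM (median 16.5), against 38.5 to 136 CPM (median 71.0) in D1 dorsal and 60.0 to 113 CPM (median 67.6) in D1 ventral striatum. The groups overlapped in the dorsal comparison and not in the ventral one, and the differences were -2.13 ± 0.186 (SE, adjusted p = 4.58e-13) and -2.01 ± 0.162 (SE, adjusted p = 3.32e-14). Syt2, a fast sensor best known from hindbrain and inhibitory synapses, was also lower, with differences of -2.04 ± 0.117 (SE, adjusted p = 1.16e-18) and -0.83 ± 0.127 (SE, adjusted p = 3.51e-07). Syt9, a fast sensor reported in limbic and striatal neurons, differed by -1.26 ± 0.165 (SE, adjusted p = 1.6e-08) and -0.80 ± 0.146 (SE, adjusted p = 8.28e-06), and Syt10, known for activity-dependent secretion, by -0.72 ± 0.155 (SE, adjusted p = 0.000112) and -1.48 ± 0.147 (SE, adjusted p = 1.38e-11).

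Of the core SNAREs, Stx1a stood out. The plasma-membrane syntaxin was at 35.2 to 81.4 CPM (median 63.2) in prefrontal cortex, 5.69 to 24.7 CPM (median 16.2) in D1 dorsal and 8.49 to 19.4 CPM (median 14.4) in D1 ventral striatum, with no overlap. Its log2 differences were 2.07 ± 0.152 (SE, adjusted p = 2.48e-15) and 2.16 ± 0.108 (SE, adjusted p = 7.13e-21). Snap25 was higher in cortex by 0.88 and 1.13, Vamp1 by 1.21 and 1.30 and Vamp2 by 0.57 and 0.38, all of them called. Cplx2 was lower, with log2 differences of -0.56 and -0.24, the latter -0.16 (adjusted p = 0.0522) with median-ratio scaling. Cplx1 did not pass, at 0.00 (adjusted p = 0.978) and 0.16 (adjusted p = 0.0704).

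The active-zone scaffold Rims1 was higher in cortex by 0.89 and 0.97 and the short form Rims4 by 1.41 and 1.01, while Rims2 was lower, at -0.28 and -0.62. Among the vesicle GTPases Rab3a was higher by 0.34 and 0.21, the ventral value being 0.19 (adjusted p = 0.0702) among EM libraries. Rab3d, at 2.92 CPM in the median prefrontal library, was higher by 1.02 and 0.99. Stxbp2, better known from immune and epithelial secretion, was lower, at -0.86 and -1.05.

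**Figure D2:**
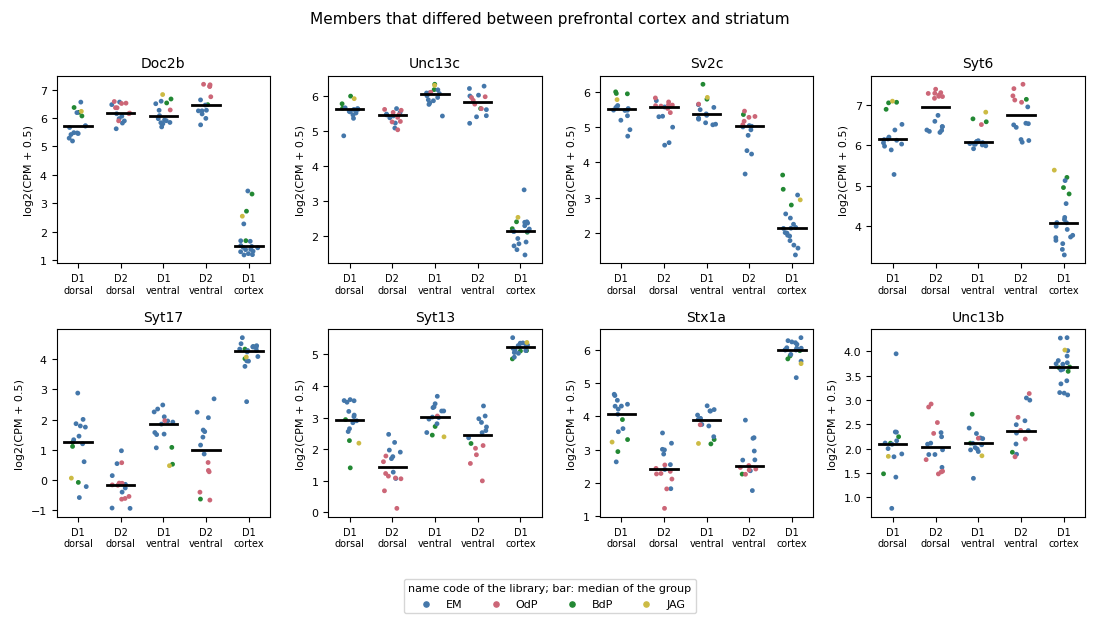
Each point is a library at its log2(CPM + 0.5), coloured by name code, with the bar at the group's median; the top row holds genes low in prefrontal cortex and the bottom row genes high there. Prefrontal medians sit at 2.28 CPM for Doc2b and 63.2 CPM for Stx1a, against 52.0 and 16.2 CPM in D1 dorsal striatum.

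Other cell types moved with this comparison. The 4 striatal projection neuron markers (Ppp1r1b, Pde10a, Rgs9 and Adcy5) were all lower in cortex and summed to 61.6 to 344 CPM (median 80.8) there, against 1332 to 2849.7 CPM (median 2379) in D1 dorsal striatum. Their highest prefrontal sum was in replicate 6, the library with the most Doc2b and Unc13c. Sv2c was highest in prefrontal replicate 1 and Syt6 in replicate 19. All 5 GABA interneuron markers were higher in cortex, where they summed to 87.2 to 245 CPM (median 149.9), against 13.6 to 57.7 CPM (median 29.4) in D1 dorsal striatum. So were all 4 astrocyte markers, at 8.16 to 50.9 CPM (median 22.4) against 3.06 to 12.1 CPM (median 5.44). Against D1 ventral striatum the markers of these 3 cell types went the same way. Of 3 oligodendrocyte markers tested, 2 were lower in cortex than in D1 dorsal striatum. Against D1 ventral striatum 1 was higher and 1 lower. The part of these cells in the gene differences was not tested. In such pooled tissue, fewer cells of a type and less RNA per cell cannot be told apart.

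The upstream sequences of 4 of these genes are shown because the genes were among those that differed most in each direction: Sv2c and Syt6, low in cortex, and Stx1a and Sv2b, high in cortex. Each is the 250 bases before the RefSeq gene start (GRCm38.p6), written 5′ to 3′ on the gene's strand, with motif matches in capitals. They lie at chr13:96132578-96132827 for Sv2c (minus strand), chr3:103574995-103575244 for Syt6 (plus), chr5:135023232-135023481 for Stx1a (plus) and chr7:75309263-75309512 for Sv2b (minus).
Sv2c: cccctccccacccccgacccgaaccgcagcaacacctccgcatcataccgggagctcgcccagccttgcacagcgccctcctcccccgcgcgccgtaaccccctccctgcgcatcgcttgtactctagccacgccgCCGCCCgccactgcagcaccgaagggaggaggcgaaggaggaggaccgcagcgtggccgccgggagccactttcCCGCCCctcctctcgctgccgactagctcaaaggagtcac
Syt6: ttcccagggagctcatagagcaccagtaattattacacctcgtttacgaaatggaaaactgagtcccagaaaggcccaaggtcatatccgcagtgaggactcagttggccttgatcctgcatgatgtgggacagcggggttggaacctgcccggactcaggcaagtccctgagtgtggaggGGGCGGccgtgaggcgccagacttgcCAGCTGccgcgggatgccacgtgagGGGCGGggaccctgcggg
Stx1a: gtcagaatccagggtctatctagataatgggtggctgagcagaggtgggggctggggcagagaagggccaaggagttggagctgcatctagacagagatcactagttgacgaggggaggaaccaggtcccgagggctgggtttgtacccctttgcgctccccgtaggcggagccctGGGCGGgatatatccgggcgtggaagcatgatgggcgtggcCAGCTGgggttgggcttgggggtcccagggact
Sv2b: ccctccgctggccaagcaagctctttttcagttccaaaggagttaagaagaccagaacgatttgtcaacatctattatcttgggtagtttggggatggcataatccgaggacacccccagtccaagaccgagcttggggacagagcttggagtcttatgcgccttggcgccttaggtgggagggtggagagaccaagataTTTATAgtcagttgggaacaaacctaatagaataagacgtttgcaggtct
The motifs searched on both strands were the GC box GGGCGG, the cAMP response element TGACGTCA, the TATA box TATAAA and the E-boxes CAGCTG and CAGATG. The windows of Sv2c and Syt6 held 2 GC boxes each, and that of Stx1a held 1. Syt6 and Stx1a also had 1 CAGCTG each. The Sv2b window had 1 TATA box and no GC box, and its GC content of 48.8% was below the 70.8% of Sv2c, 60.4% of Syt6 and 62% of Stx1a. RefSeq windows were matched for 54 of the 71 genes (70 windows, as some genes have several starts). GGGCGG was in 60% of these against 32.74% of all 32851 windows of this length, CAGCTG in 25.71% against 13%, CAGATG in 10% against 14.44%, TATAAA in 7.143% against 12.37% and TGACGTCA in 1.429% against 1.546%. A match describes these letters only.

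Next, D1 and D2 neurons of the same region were compared, the direct- and indirect-pathway types of the striatum. In dorsal striatum 19 of the 61 genes tested were higher in D1 (12.8% of all genes were) and 7 were lower (13% of all genes). At 2-fold or more 5 were higher (2.41% of all genes) and none lower (0.956% of all genes). In ventral striatum 20 of 62 were higher in D1 (24.1% of all genes) and 13 lower (23.6%). There, 2 were at least 2-fold higher and 1 at least 2-fold lower, against 2.06% and 1.56% of all genes. The median log2 difference of the tested members was 0.14 in dorsal and 0.12 in ventral striatum, against 0.02 over all genes in each. No member was free of overlap between D1 and D2 libraries in either region (1.18% of all genes were in dorsal and 1.34% in ventral striatum). Without the libraries that stood apart, 25 were higher and 8 lower in dorsal striatum (15.9% and 14.6% of all genes) and 21 and 11 in ventral striatum (22% and 23.5%), and Syt7 had no overlap in dorsal striatum (2% of all genes had none) while no member was free of it in ventral striatum (1.51%). Among EM libraries alone 16 were higher and 2 lower in dorsal striatum (6.48% and 5.78% of all genes) and 18 and 13 in ventral striatum (16.4% and 23.7%). With columns scaled to the reads in genes, 30 were higher and 9 lower in ventral striatum (32.4% and 16.6% of all genes), and the median over all genes was 0.13. The share of reads that fell in genes was 35.11% ± 1.64 (SD, n = 15) in D1 ventral and 37.98% ± 1.505 (SD, n = 14) in D2 ventral striatum, and a fit that took this share into account called 13 higher and 1 lower (5.64% and 5.03% of all genes). Of the ventral calls named below, those of Syt7, Syt9, Rab3b, Vamp3, Sv2c, Stx1a and Unc13a held in that fit, with Stx1a at 0.54, and the other ones did not. In dorsal striatum the same fit called 22 higher and 3 lower (10.6% and 9.93% of all genes), and of the dorsal calls named below those of Syt6, Doc2b and Stxbp4 fell short.

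Of the synaptotagmins tested, 6 of 14 were higher and 1 lower in D1 dorsal striatum (12.8% and 13% of all genes), and 7 of 15 higher and 3 lower in D1 ventral striatum (24.1% and 23.6%). Syt7, the sensor of asynchronous release and facilitation (chromosome 19, 10388802 to 10453181), was at 16.7 to 60.3 CPM (median 40.4) in D1 dorsal and 6.09 to 22.6 CPM (median 17.6) in D2 dorsal striatum, and at 28.1 to 57.4 CPM (median 37.7) in D1 and 9.73 to 29.7 CPM (median 19.1) in D2 ventral striatum. In each region 14 of 15 D1 libraries exceeded every D2 library, and the log2 differences were 1.31 ± 0.161 (SE, adjusted p = 6.21e-08) and 1.00 ± 0.133 (SE, adjusted p = 3.6e-07). Syt13 was at 0.590 to 5.04 CPM (median 2.22) in D2 dorsal and 1.49 to 9.82 CPM (median 4.94) in D2 ventral striatum and was higher in D1 by 1.44 ± 0.204 (SE, adjusted p = 1.01e-06) and 0.64 ± 0.181 (SE, adjusted p = 0.00434). Among EM libraries alone the ventral Syt13 difference was 0.33 (adjusted p = 0.0688). Syt9 was at 2.16 to 9.49 CPM (median 7.09) in D1 and 0.792 to 4.82 CPM (median 3.22) in D2 dorsal striatum, a difference of 0.98 ± 0.163 (SE, adjusted p = 1.67e-05), and it differed by 0.99 ± 0.158 (SE, adjusted p = 6.62e-06) in ventral striatum. Syt2 was higher by 0.64 (adjusted p = 0.00409) and 0.88 (adjusted p = 0.000583), and the dorsal difference was 0.70 (adjusted p = 0.0741) among EM libraries.

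On the opposite side, Syt6 and Doc2b were lower in D1. Syt6 was at 38.5 to 136 CPM (median 71.0) in D1 and 79.5 to 167 CPM (median 125) in D2 dorsal striatum. It differed by -0.53 ± 0.159 (SE, adjusted p = 0.012) in dorsal and -0.57 ± 0.138 (SE, adjusted p = 0.00118) in ventral striatum. Doc2b differed by -0.39 (adjusted p = 0.0213) and -0.36 (adjusted p = 0.0403). Neither Doc2b call held among EM libraries, at -0.42 (adjusted p = 0.0964) and -0.18 (adjusted p = 0.252), and the ventral one was also lost without the libraries that stood apart and under both other scalings. For both, the groups overlapped widely. Syt1 passed only in ventral striatum, at -0.23 (adjusted p = 0.016), against -0.01 (adjusted p = 0.914) in dorsal striatum, and fell short among EM libraries, at -0.24 (adjusted p = 0.0553).

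Of the SNAREs, Stx1a was at 5.69 to 24.7 CPM (median 16.2) in D1 and 1.86 to 10.8 CPM (median 4.85) in D2 dorsal striatum, and at 8.49 to 19.4 CPM (median 14.4) in D1 and 2.91 to 14.2 CPM (median 5.13) in D2 ventral striatum. The D1 medians were above the D2 medians in both regions, and the differences were 1.42 ± 0.203 (SE, adjusted p = 1.18e-06) and 1.12 ± 0.164 (SE, adjusted p = 1.84e-06). The highest D2 values of Stx1a were in the libraries with the most cortical marker RNA, D2 dorsal replicate 1 and D2 ventral replicate 2, and without the latter the ventral difference was 1.21. The same libraries held the highest D2 values of Rab3a, Rab3b, Doc2a and Syt17, while those of Syt7 and Syt13 were in other libraries. Vamp3 (cellubrevin), the broadly expressed synaptobrevin of recycling endosomes, was lower in D1. It was at 2.75 to 13.2 CPM (median 6.39) in D1 and 5.00 to 12.2 CPM (median 9.57) in D2 dorsal striatum and at 5.68 to 12.6 CPM (median 7.65) in D1 and 7.99 to 25.0 CPM (median 17.4) in D2 ventral striatum. Its differences were -0.48 ± 0.132 (SE, adjusted p = 0.0063) and -1.04 ± 0.127 (SE, adjusted p = 6.98e-08). The widely expressed Snap29 and the endosomal Stx7 were lower in D1 ventral striatum, at -0.61 (adjusted p = 0.000194) and -0.47 (adjusted p = 0.000287). Neither passed in dorsal striatum. Snap25 did not pass in either region, at 0.12 (adjusted p = 0.524) and -0.07 (adjusted p = 0.698), nor did Vamp1 or Vamp2. With the share of reads in the fit, the dorsal Snap25 difference was 0.31 (adjusted p = 0.0154).

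For docking and priming, the short Rims form Rims3 was at 8.46 to 25.3 CPM (median 15.5) in D1 and 3.93 to 9.76 CPM (median 5.81) in D2 dorsal striatum and was higher in D1 by 1.34 ± 0.145 (SE, adjusted p = 3.57e-09), with 0.80 ± 0.158 (SE, adjusted p = 0.000123) in ventral striatum. Among EM libraries alone the ventral Rims3 difference was 0.42 (adjusted p = 0.00265). Rab3b and Rab3c, related vesicle GTPases, went opposite ways. Rab3b was higher in D1 by 0.78 ± 0.0989 (SE, adjusted p = 1.05e-07) and 0.82 ± 0.103 (SE, adjusted p = 1.23e-07), and Rab3c was lower, at -0.46 ± 0.109 (SE, adjusted p = 0.00162) and -0.47 ± 0.0969 (SE, adjusted p = 0.000224). Among EM libraries alone the dorsal Rab3c difference was -0.43 (adjusted p = 0.06), no longer past the threshold. Unc13a was higher by 0.47 and 0.70. Stxbp4, a syntaxin-binding protein studied in insulin-responsive transport, was lower, at -0.44 and -0.57, the dorsal call being lost among EM libraries (adjusted p = 0.27) and without the libraries that stood apart (adjusted p = 0.063). Cplx1 was lower in D1 ventral striatum, at -0.41 (adjusted p = 0.000281), and Cplx2 was higher in D1 dorsal striatum, at 0.39 (adjusted p = 7.06e-05).

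The vesicle proteins Sv2a and Sv2c passed in ventral striatum only, with 0.71 (adjusted p = 7.01e-05) and 0.56 (adjusted p = 0.00228). When the fit took that share of reads into account, the Sv2a difference was 0.19 (adjusted p = 0.396). Syn1 and Rab3a, called at -0.37 and 0.28 in ventral striatum, changed sign in that fit, as did Doc2b. Without the libraries that stood apart, the Syn1 difference was -0.24 (adjusted p = 0.176) and that of Rab3a 0.17 (adjusted p = 0.176), and neither passed among EM libraries.

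**Figure D3:**
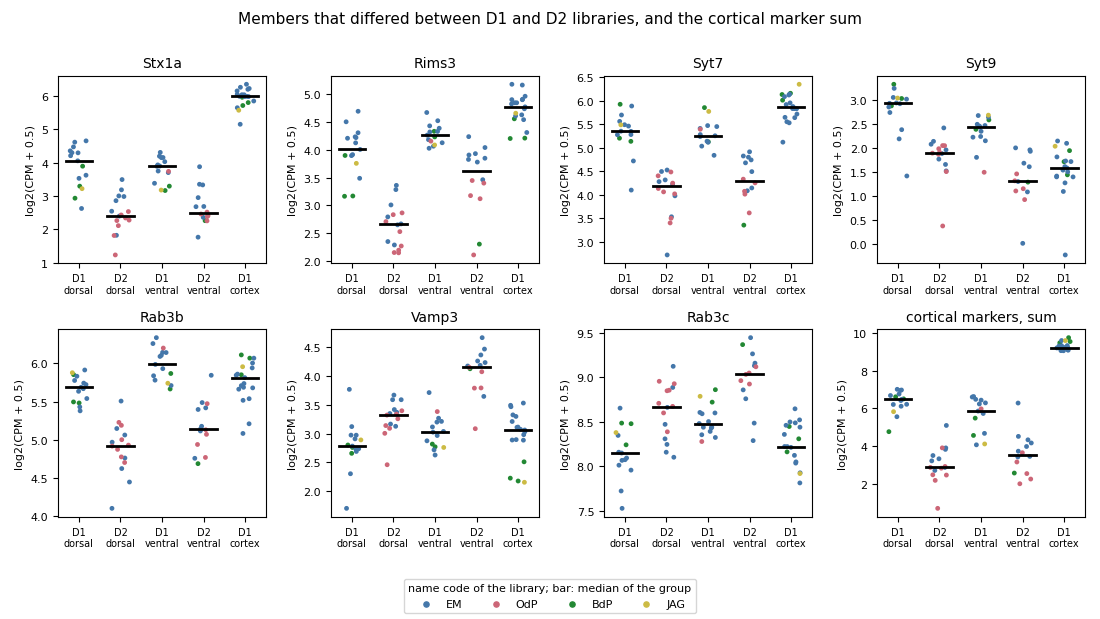
Points are libraries coloured by name code at log2(CPM + 0.5), bars are group medians, and the last panel gives the summed CPM of the 5 cortical glutamatergic markers on the same scale. D1 striatal libraries are higher for the first 5 genes and for the marker sum, whose medians are 88.6 CPM in D1 dorsal and 6.96 CPM in D2 dorsal striatum, and lower for Vamp3 and Rab3c.

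Cortical markers moved with the D1 side. All 5 were higher in D1 dorsal striatum and 4 of 5 in D1 ventral striatum, and the difference in their mean CPM between D1 and D2 was 9.91% (Neurod6) to 13.6% (Tbr1) of the prefrontal mean in dorsal striatum, and 1.59% (Nrn1) to 8.37% (Slc17a7) in ventral striatum. On the same scale the difference was 16.1% for Stx1a, 13.6% for Syt13 and 14.4% for Doc2a in dorsal striatum, and 11.9%, 7.34% and 11.4% in ventral striatum. For Rims3 it was 37.7% and 28.6%, for Syt7 42.1% and 33.2%, and for Rab3b 38.4% and 50.0%. For Syt9 (141% and 97.8%) and Syt2 (140.3% and 79.3%) it was of the order of the whole prefrontal level. Other genes high in cortex varied on this scale. The difference was 10.3% and 15.2% for Rims4, 9.09% and 5.11% for Syt17 and 9.52% and -1.24% for Vamp1. It was 5.95% and -1.61% for Sv2b, 4.86% and -3.96% for Snap25, 2.05% and -9.48% for Unc13b and -0.222% and -7.70% for Syt1. In dorsal striatum 3 of the 4 GABA interneuron markers tested were also higher in D1, where all 5 summed to 13.6 to 57.7 CPM (median 29.4), against 3.32 to 24.5 CPM (median 10.1) in D2. The part of cortical and interneuron RNA in the D1 differences was not tested. The 4 oligodendrocyte markers summed to 50.9 to 168 CPM (median 71.0) in D1 and 66.2 to 201 CPM (median 109) in D2 dorsal striatum, and to 41.8 to 74.0 CPM (median 46.1) in D1 and 48.9 to 195 CPM (median 79.1) in D2 ventral striatum. The sum of the 3 cholinergic interneuron markers Chat, Slc5a7 and Lhx8 was also higher in D2, at 2.89 to 14.2 CPM (median 6.32) in dorsal and 6.63 to 15.1 CPM (median 12.2) in ventral D2 striatum, against 0.365 to 1.59 CPM (median 0.751) and 0.559 to 2.69 CPM (median 1.34) in D1. Their part in the genes lower in D1 was not tested.

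The name code went with some of these genes inside the D2 groups. In D2 dorsal striatum 2 of 61 members, Syt6 and Vamp2, had every OdP library above every EM library (2.28% of all genes) and 1, Stx18, the reverse (4.95% of all genes). In D2 ventral striatum 4 of 63, Doc2b, Snap91, Sv2c and Syt6, had OdP above EM (2.49% of all genes), and 5, Doc2a, Rims3, Syn2, Syt13 and Syt17, had EM above OdP (6.77% of all genes). In D2 dorsal striatum Syt6 was at 79.5 to 107 CPM (median 85.4) in the 8 EM and 143 to 167 CPM (median 153) in the 8 OdP libraries. In D2 ventral striatum it was at 67.1 to 123 CPM (median 88.7) in the 8 EM and 134 to 182 CPM (median 149) in the 5 OdP libraries. Among EM libraries alone the D1 minus D2 difference in Syt6 was -0.39 (adjusted p = 0.0377) in dorsal and -0.37 (adjusted p = 0.00339) in ventral striatum. Because D1 groups held at most 1 OdP library, what the code stands for and receptor type cannot be told apart for OdP libraries.

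The last contrasts asked how dorsal striatum (caudate putamen, linked to movement) differs from ventral striatum (which holds the nucleus accumbens, linked to reward). In D1 neurons 10 of 62 genes were higher in dorsal striatum (10.1% of all genes) and 19 lower (24.5%). In D2 neurons 6 of 61 were higher (7.93%) and 19 lower (20.6%). At 2-fold or more 1 was higher (1.33% of all genes) and 1 lower (2.12%) in D1, and 1 higher (1.11%) and 2 lower (3.04%) in D2. The median over all genes tested was itself -0.12 in both receptor types, and the members' median was -0.12 in D1 and -0.20 in D2. With columns scaled by median ratios instead, the median over all genes was near 0 and the members' counts were 13 higher and 10 lower in D1 (14.8% and 14.2% of all genes) and 11 higher and 12 lower in D2 (12.1% and 12.3%). In D1 neurons 3 genes had no overlap, Syt2, Stxbp6 and Syn2 (2.65% of all genes), and in D2 neurons none had (1.46% of all genes). Without the libraries that stood apart, D2 had 3, Stxbp6, Syn2 and Syt10 (2.44% of all genes), and 11 members passed as higher and 22 as lower among D1 libraries (12.6% and 29.8% of all genes), with 8 and 20 among D2 libraries (9.04% and 25.1%). The receptor and regional comparisons use the same striatal libraries.

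Of the 15 synaptotagmins tested in D1 neurons 8 were higher in dorsal striatum and 2 lower (10.1% and 24.5% of all genes), and of the 14 tested in D2 neurons 5 were higher and 2 lower (7.93% and 20.6%). With median-ratio scaling 8 were higher and 1 lower in D1 (14.8% and 14.2% of all genes) and 7 and 2 in D2 neurons (12.1% and 12.3%), and among EM libraries alone 3 and 3 of 15 in D2 neurons (4.65% and 15.2% of all genes). Syt2 was at 14.7 to 31.6 CPM (median 23.5) in D1 dorsal and 4.98 to 13.1 CPM (median 10.1) in D1 ventral striatum, and at 3.96 to 25.0 CPM (median 15.3) in D2 dorsal and 1.19 to 11.4 CPM (median 5.65) in D2 ventral striatum. The D1 groups were separate and the D2 groups overlapped, with differences of 1.21 ± 0.113 (SE, adjusted p = 1.38e-10) and 1.44 ± 0.233 (SE, adjusted p = 8.96e-06). Syt3, a high-affinity sensor, was higher by 0.60 ± 0.118 (SE, adjusted p = 0.000141) and 0.91 ± 0.186 (SE, adjusted p = 0.000271). Syt11, which does not bind calcium, was higher by 0.38 and 0.52, and Syt9 by 0.46 and 0.47. Neither Syt9 call held among EM libraries, at 0.34 (adjusted p = 0.117) and 0.48 (adjusted p = 0.182), and the D2 one was also lost without the libraries that stood apart. Syt4 and Syt12 passed in D1 neurons only, at 0.39 (adjusted p = 0.00439) and 0.46 (adjusted p = 0.00687), and Sv2c in D2 neurons only, at 0.50 (adjusted p = 0.0128), or 0.57 (adjusted p = 0.0729) among EM libraries.

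Stxbp6 (amisyn), which can bind syntaxin and SNAP-25 in place of a synaptobrevin, was higher in ventral striatum. It was at 7.85 to 18.1 CPM (median 12.8) in D1 dorsal and 20.2 to 44.0 CPM (median 29.3) in D1 ventral striatum, and at 3.92 to 14.9 CPM (median 7.85) in D2 dorsal and 12.7 to 46.8 CPM (median 22.3) in D2 ventral striatum. Every D1 ventral library exceeded every D1 dorsal one, and the dorsal minus ventral differences were -1.18 ± 0.121 (SE, adjusted p = 1.07e-09) and -1.39 ± 0.161 (SE, adjusted p = 1.62e-08). Syn2, a reserve-pool synapsin, was at 56.7 to 116 CPM (median 81.8) in D1 dorsal and 128 to 174 CPM (median 154) in D1 ventral striatum, also separate, and the differences were -0.92 ± 0.0801 (SE, adjusted p = 2.12e-11) and -0.78 ± 0.11 (SE, adjusted p = 6.74e-07). Syn1 did not pass in either type. Stx12 and Unc13c were lower in dorsal striatum, at -0.55 and -0.42 in D1 and -0.51 and -0.39 in D2 neurons, where Unc13c among EM libraries was at -0.37 (adjusted p = 0.0946). Stx17, an autophagosomal syntaxin, was lower in D1 neurons, at -0.42.

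In D2 neurons Syt13, Rims3 and Vamp3 were also lower in dorsal striatum, at -0.92 ± 0.215 (SE, adjusted p = 0.00118), -0.84 ± 0.18 (SE, adjusted p = 0.000448) and -0.81 ± 0.128 (SE, adjusted p = 6.47e-06). Among OdP libraries alone Syt13 and Rims3 differed by -0.61 (adjusted p = 0.12) and -0.59 (adjusted p = 0.063), no longer past the threshold. Snap25, Stx1a, Vamp1, Vamp2, Unc13a, Cplx1 and Rab3a did not pass between regions in either type. Striatal projection neuron markers were all 4 higher in dorsal striatum in both types, with sums of 1332 to 2849.7 CPM (median 2379) in D1 dorsal and 1336 to 1639 CPM (median 1488) in D1 ventral striatum. Cortical glutamatergic markers were higher in D1 dorsal striatum for 2 of 5. In D1 dorsal striatum 3 of the 3 oligodendrocyte markers tested and 3 of 4 GABA interneuron markers were higher and 1 of the latter lower, while the 4 D2-neuron markers were lower in D1 dorsal and higher in D2 dorsal than in ventral striatum. In D2 dorsal striatum 3 of 4 GABA interneuron and 2 of 3 cholinergic markers were lower and 1 of 4 oligodendrocyte markers higher. The part of these cells in the regional differences was not tested.

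**Figure D4:**
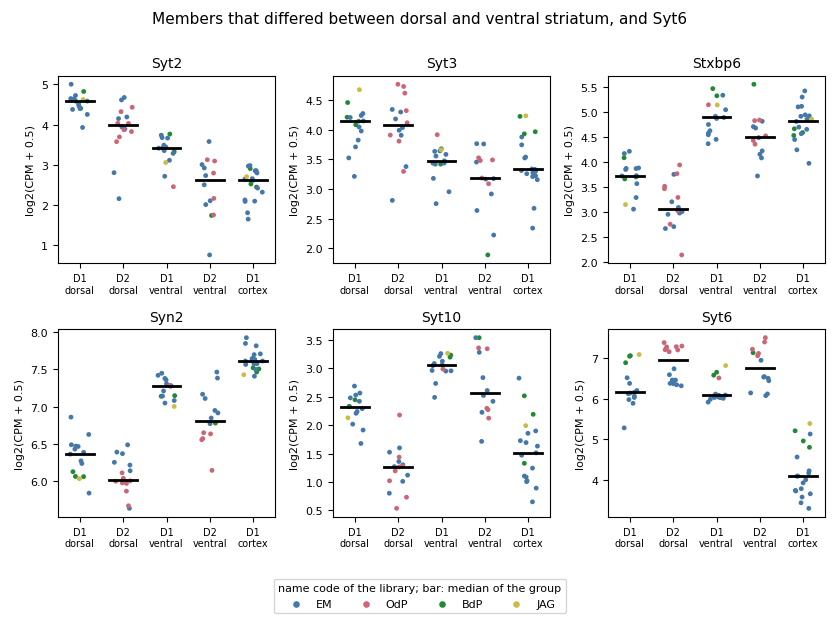
Points are libraries coloured by name code at log2(CPM + 0.5) and bars are group medians. Syt2 and Syt3 medians are higher in dorsal than ventral striatum in both receptor types (Syt2 23.5 against 10.1 CPM in D1), Stxbp6, Syn2 and Syt10 lower, and the Syt6 panel shows OdP libraries above EM libraries in the D2 groups.

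Whether the D1 to D2 difference itself depended on region was tested as an interaction over the 4 striatal groups. Of the 64 genes tested, 1 passed with a more positive D1 minus D2 difference in dorsal striatum (1.93% of all genes) and none with a more positive one in ventral striatum (0.707% of all genes). It was Syt10, at 2.70 to 5.95 CPM (median 4.52) in D1 dorsal, 0.9504 to 4.03 CPM (median 1.91) in D2 dorsal, 5.12 to 9.12 CPM (median 7.86) in D1 ventral and 2.78 to 11.1 CPM (median 5.43) in D2 ventral striatum. D2 dorsal striatum had the lowest median. D1 and D2 overlapped within each region, and dorsal and ventral striatum overlapped within each receptor type. The D1 minus D2 difference was 1.06 ± 0.128 (SE, adjusted p = 4.08e-08) in dorsal and 0.32 ± 0.157 (SE, adjusted p = 0.094) in ventral striatum, and the interaction was 0.74 ± 0.202 (SE, adjusted p = 0.0271). In the same contrast all 4 D2-neuron markers were lower (median log2 difference -2.01), 2 of 4 GABA interneuron markers higher and 1 of 5 cortical glutamatergic markers higher, and their part in the Syt10 result was not tested. Among EM libraries alone it was 0.68 (adjusted p = 0.129), not past the threshold. Without the 7 libraries that stood apart, 5 genes passed. The signed D1 minus D2 difference was more positive in dorsal striatum for Syt10, Rims1, Stx7 and Vamp3 (3.15% of all genes) and more positive in ventral striatum for Syt5 (0.992% of all genes). For Vamp3 and Stx7 this means a difference further below 0 in ventral striatum: without those libraries Vamp3 was at -0.43 in dorsal and -1.03 in ventral striatum, and Stx7 at 0.00 and -0.46.

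Within a library, the ratio of related genes is little affected by how the libraries were scaled. Of 9 ratios computed, 3 had groups without overlap in at least 1 comparison, and no share over other gene pairs was computed. The log2 ratio of Syt2 to Syt1 (each CPM + 0.5) was -3.51 to -3.10 (median -3.25) in D1 dorsal, -5.32 to -3.85 (median -4.11) in D1 ventral striatum and -7.50 to -5.33 (median -6.20) in prefrontal cortex. These 3 ranges were separate, but D1 ventral striatum (lowest -5.3225, replicate 15) and prefrontal cortex (highest -5.3253, replicate 5) nearly met. For Sv2c to Sv2a it was -4.64 to -2.04 (median -3.61) in prefrontal cortex, against -0.43 to 0.82 (median -0.19) in D1 dorsal and -0.58 to 0.86 (median -0.21) in D1 ventral striatum. Here too prefrontal cortex did not overlap either D1 striatal group. For Rims2 to Rims1 it was -2.75 to -1.21 (median -1.59) in prefrontal cortex and -0.57 to 0.09 (median -0.13) in D1 ventral striatum, again separate. Between D1 and D2 neurons of a region no ratio was separate.

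**Figure D5:**
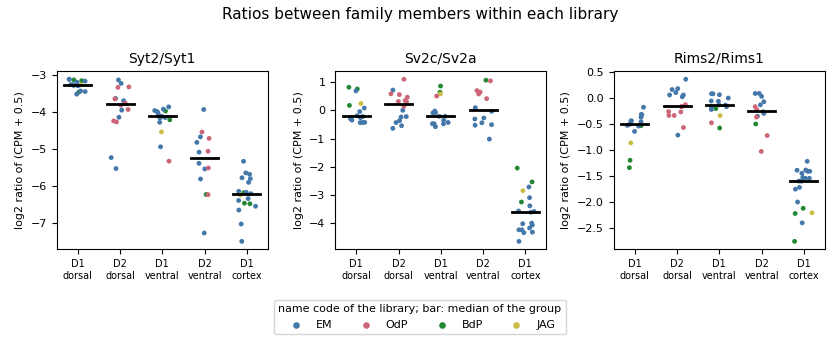
Each point is the log2 ratio of 2 related genes (each CPM + 0.5) in 1 library, coloured by name code, with the bar at the group's median. Prefrontal cortex is lowest for Syt2/Syt1, Sv2c/Sv2a and Rims2/Rims1, with medians of -6.20, -3.61 and -1.59.

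Other genes of the vesicle cycle, 38 genes for SNARE disassembly, active-zone scaffolds, vesicle membrane and endocytosis, were described beside the members. In prefrontal cortex 28 of 37 were higher and 5 lower than in D1 dorsal striatum (32.3% and 22.5% of all genes), and 27 higher and 7 lower than in D1 ventral striatum (27.7% and 35.1%). Between D1 and D2 neurons 13 of 37 were higher in D1 and 4 lower in dorsal striatum (12.8% and 13% of all genes), and 13 higher and 10 lower in ventral striatum (24.1% and 23.6%). By region, 5 of 37 were higher and 7 lower in D1 dorsal striatum (10.1% and 24.5% of all genes), and 4 of 36 higher and 11 lower in D2 dorsal striatum (7.93% and 20.6%). Cplx3, the complexin of ribbon synapses and some deep cortical neurons, was at 1.71 to 16.7 CPM (median 8.03) in D1 and 0.0147 to 1.08 CPM (median 0.291) in D2 dorsal striatum, a difference of 3.23 ± 0.199 (SE, adjusted p = 1.12e-15). Its prefrontal median was 16.6 CPM. Cadps2, a priming factor of dense-core vesicles, was at 5.30 to 28.0 CPM (median 15.8) in D1 and 0.558 to 11.5 CPM (median 2.21) in D2 dorsal striatum, a difference of 2.45 ± 0.259 (SE, adjusted p = 1.88e-09), with a prefrontal median of 75.3 CPM. Ppfia4 (liprin-alpha-4) was higher in D1 by 0.96 ± 0.123 (SE, adjusted p = 1.21e-07) in dorsal striatum but lower in prefrontal cortex than in D1 dorsal striatum, at -0.98 ± 0.101 (SE, adjusted p = 3.46e-11). In the interaction 3 of 37 passed (1.93% and 0.707% of all genes in the positive and negative direction), Cadps2, Rph3a and Sh3gl2, each with a more positive D1 minus D2 difference in dorsal striatum. These 3, and Cplx3, Cadps2 and Ppfia4 above, were named after their values were seen.

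Some members share exon bases with another gene of the table in GENCODE M21, and since the library kit does not mark strand, reads from shared bases cannot be assigned to one strand. Doc2a shared 1103 of its 2803 exon bases with Ino80e, Syn3 1733 of 12282 with Timp3, Syt12 950 of 5539 with A930001C03Rik, Stx18 574 of 4593 with Nsg1, Rab3b 317 of 3524 with 8030443G20Rik and Doc2b 241 of 4361 with Gm12339. Smaller overlaps included 90 bases of Syn2 shared with Timp4, 60 of Snap29 with Pi4ka and 9 of Syn1 with Araf. Only members named elsewhere in the text are listed here, so the list is not complete.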

How the data were processed

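The authors deposited 1 table of CPM values for 25899 genes in 79 libraries. Per the submitters' processing notes, Trim Galore 0.4.2, cutadapt 1.9.1, FastQC, HISAT2 0.12.2 and GRCm38 were used; the counter, annotation and filters are not given in the sources used here. Divided by the worth of 1 read, 100% of the deposited CPM values came out whole (within 0.01 of a read), so read totals could be recovered. They are scaled to a total larger than the reads in genes, of which 36.08% ± 2.34 (SD, n = 79) fell in listed genes.

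Here limma 3.58.1 (lmFit and eBayes with trend, R 4.3.3, two-sided) was fitted on log2(CPM + 0.5) to the groups compared, for genes with at least 1 CPM in as many libraries as the smaller group, with Benjamini-Hochberg adjustment. Differences understate those of genes near the pseudocount. The interaction fit used the 4 striatal groups. The script was tested on simulated data. edgeR 4.0.16 (TMM, quasi-likelihood) on the recovered reads was an alternative, with other pseudocounts, scalings, filters, covariates and subsets of libraries.

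Genes named were the called members with the 6 largest differences in each direction at a mean of at least 5 CPM, the 4 largest in the interaction, and a core list; others given with values were chosen after those were seen. A few genes, some of them members that stay in the counts, are not reported by name here, and markers among them were left out of the marker sums. Members and lists were chosen with earlier results of these data known. Groups came from the sample labels, and replicate numbers only name libraries. Libraries are pools of 3 mice; whether regions share mice is not stated, and p-values measure the spread between pools. Exon lengths and sequences came from the reference annotation and RefSeq.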

Additional observations from a re-analysis of the deposited data

Results flagged for a closer look

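The D1 minus D2 difference in Syt10 differed between regions: it was larger in dorsal than in ventral striatum by 0.74 ± 0.202 on the log2 scale (SE, limma adjusted p = 0.0271, interaction over the 4 striatal groups). Syt10 was the 1 of 64 members that passed in this direction, where 1.93% of all genes did, and it did not pass among EM libraries alone. All 4 D2-neuron markers were lower in this contrast and 2 of 4 GABA interneuron markers higher. Their part was not tested. The Syt10 medians were 4.52 CPM in D1 dorsal, 1.91 CPM in D2 dorsal, 7.86 CPM in D1 ventral and 5.43 CPM in D2 ventral striatum. Values of single genes in groups of 14 to 19 libraries were not screened for outlying libraries.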

How the results depend on the processing

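Of 184 gene results, 126 kept their direction and their side of the threshold in every alternative. Of the 134 called, 35 fell short of the threshold in at least 1 alternative, and 23 of the uncalled passed in at least 1. When the fit took into account each library's share of reads in genes, the ventral D1 minus D2 comparison called 14 members (10.7% of all genes) and none at 2-fold or more (0; 2.14% of all genes), and Rab3a (-0.018), Syn1 (0.214) and Doc2b (0.012) reversed there. With a pseudocount of 1, 1 of 62 members was called at 2-fold or more in that comparison (2.6% of all genes). With EM libraries only, 6 of 63 members were called at 2-fold or more between D2 regions, 1 higher and 5 lower in dorsal striatum (0.992% and 3.53% of all genes). The interaction called 2 members with columns scaled to reads in genes, 2 with median-ratio scaling, 3 with that share in the fit, 2 with EM libraries only, 5 with the name code as covariate, 2 with all 5 groups fitted, 2 with edgeR and 5 without the libraries that stood apart, where 1.6% to 3.15% of all genes were called in the positive and 0.359% to 1.33% in the negative direction. Where a setting removes libraries the test has fewer of them; otherwise the cause was not tested. No paired analysis was run: only 1 library number recurs between groups in the labels, and whether regions share mice is not stated. Many consecutive library names run through the regions in turn, but the labels do not say that neighbours share mice. They were not used as blocks, and if they share mice the regional groups are not independent. Genes under about 1 CPM, such as Stx11 and Syt15, could not be compared at this depth.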
